A study of Homo sapiens with 2 samples.

Results

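A group of 909 untreated A375 melanoma cells with high levels of 10 genes that cells use around the start of DNA replication is described here. A375 is an established human melanoma cell line. The cells, called early-S cells below, were the top 10% of the 9094 parental barcodes with at least 5000 unique molecular identifiers (UMIs, each 1 counted mRNA molecule) and at most 20% mitochondrially encoded UMIs. They were ranked by the summed UMIs of CCNE2, UNG, MCM3, MCM5, MCM6, GINS2, CDC6, PCNA, FAM111B and CDCA7 per 10000 UMIs. The parental library held 10751 barcodes, and the whole series held 17895. The other 8185 eligible parental cells are the comparison. The second library was of A375 cells alive after 15 days together with killer T cells (CTLs) that recognise the antigen NY-ESO-1, in medium with interleukin 2 at 7.5 ng/mL, with CTLs added anew every 3 days. These are called persister cells. The parental cells are labelled as untreated, and both libraries came from the same line grown in RPMI medium with serum and were detached with trypsin.

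Each group is 1 library, so no difference between cells has a replicate check, no test was run, and intervals are 95% exact intervals that cover counting error only. The parental library held 88214007 UMIs and the persister library 80802724. Early-S cells had a median of 6918 UMIs, against 8414 in the other parental cells, and a median of 5.80% mitochondrially encoded UMIs, against 5.91%. Cells above 2 times the median depth, where doublets would be sought, made up 3 of 909 early-S cells (0.330%) and 458 of the other cells (5.60%). The libraries shared 38 barcodes, 2 of them among early-S cells. The melanoma line marker SOX10 had 96.2 UMIs per 1000000 UMIs (CPM) in early-S cells and 99.6 CPM in the other cells, and the melanocyte factor MITF had 12.1 and 13.9 CPM. Other markers were lower in early-S cells: S100A1 (36.5 and 52.5 CPM), S100B (36.3 and 48.0 CPM), CSPG4 (22.4 and 26.7 CPM) and MIA (158 and 169 CPM). GPNMB (32.5 and 32.0 CPM), PRAME (46.6 and 42.4 CPM) and SERPINE2 (1766 and 1769 CPM) did not differ beyond counting error. MLANA and TYR, pigment cell genes, had 0 UMIs in both groups, which allows up to 0.460 CPM in early-S cells and 0.0395 CPM in the others. The 15 T cell markers together had 4.45 CPM in early-S cells and 4.09 CPM in the others.

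At the end of G1 phase, cyclin E bound to CDK2 phosphorylates the retinoblastoma protein, which frees E2F transcription factors to drive genes for licensing, copying and repairing DNA. MCM helicases, loaded on origins with the help of CDC6, CDT1 and the origin recognition complex, unwind DNA, and PCNA clamps the polymerases to it. New DNA is wrapped on new histones, whose genes are switched on with replication. Most replication-dependent histone mRNAs end in a stem-loop bound by SLBP in place of a poly(A) tail, and libraries primed on poly(A), as here, capture them only in part. Genes for G2 phase and mitosis are expressed later in the cycle.

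The 10 selection genes set the group apart by construction, so their values only describe it. CCNE2, a cyclin E, had 870 UMIs and 133 CPM in early-S cells, against 28.9 CPM in the other parental cells, 4.62-fold higher. FAM111B, a protease, had 71.0 CPM against 16.8 CPM, 4.24-fold higher. The origin licensing factor CDC6 was 3.11-fold, the uracil-DNA glycosylase UNG 3.07-fold, the chromatin regulator CDCA7 2.59-fold, and the helicase subunits MCM6, MCM3 and MCM5 were 2.54-fold, 2.36-fold and 2.12-fold higher. PCNA, the clamp, had 282 CPM in early-S cells and 124 CPM in the others, 2.28-fold, and GINS2, a part of the helicase, was 2.21-fold higher. The ratio was largest for CCNE2 and FAM111B and smallest for MCM5. The name early-S follows these genes, and DNA content was not measured.

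The selection score had a median of 14.1 UMIs per 10000 in early-S cells, and reached 29.7, and a median of 5.60 in the other cells. The last cell inside had 12.011 and the first outside 12.0096, so the limit fell within a continuous range of cells. When a random 5000 UMIs of each cell were kept (thinned cells), early-S cells had a median of 7 UMIs of the selection genes, between 2 and 15, and the others had a median of 3, between 0 and 13. A median of 5 of the 10 genes was seen in an early-S cell, against 2 in another cell. Of the 909 cells, 676 (74.4%) were also in the top 10% when the score was counted on thinned cells.

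Outside the 10 genes, 9534 genes were measured, meaning that they had at least 5 CPM in early-S cells or in the other parental cells. At a ratio of summed CPM of at least 1.5, 113 genes (1.19%) were higher in early-S cells. At the same ratio, 132 genes (1.38%) were lower. Both counts include genes that reached 5 CPM only in the group where they were higher. An example among the higher genes is DLK2, with 5.37 CPM in early-S cells and 2.36 CPM in the others. Among the lower genes, FAM72D had 1.07 CPM in early-S cells and 5.48 CPM in the others. Such genes were kept in the promoter and persister counts below. The median log2 ratio over all measured genes was 0.03, and 5437 genes (57.0%) lay above 1. At 2-fold, 12 genes were higher and 26 lower. Few genes therefore differed, and 35 of the higher and 31 of the lower ones were in the gene lists described below.

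The 12 genes with the highest ratio were sought among those with at least 20 CPM in early-S cells or in the others, and 4 of them (CCNE1, SLFN11, USP37 and RMI1) reach that level only in early-S cells. CCNE1 (ENSG00000105173, chr19:29811898-29824308, GRCh38), the second cyclin E, had 139 UMIs and 21.3 CPM in early-S cells, against 9.69 CPM in the others, 2.20-fold higher (interval 1.82 to 2.64). WDR76, a WD-repeat protein, had 62.4 CPM against 29.5 CPM, 2.12-fold higher (1.90 to 2.36). SLFN11, a protein that acts at stressed replication forks, had 26.2 CPM against 12.7 CPM, 2.06-fold higher (1.74 to 2.42). The 12 genes were picked for the size of their ratio in these same counts, so their intervals give counting error alone and add no support. MSH6, a mismatch recognition protein, had 179 CPM in early-S cells and 87.0 CPM in the others, 2.05-fold higher (1.93 to 2.18). DTL, which directs replication-coupled destruction of CDT1, had 112 CPM and 59.1 CPM, 1.89-fold higher. USP37, a deubiquitinase of cyclin A, was 1.82-fold, the replication initiation factor MCM10 1.80-fold, the origin subunit ORC1 1.78-fold, RMI1 of the BLM complex 1.76-fold and SLBP 1.71-fold higher. The other 2 of the 12 highest were the histone genes HIST1H2AH and HIST1H1D, at 1.82-fold and 1.80-fold. In cells of at least 10000 UMIs, ranked anew, ORC1 (1.31-fold) and RMI1 (1.29-fold) did not pass 1.5-fold.

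Promoters of some higher and lower genes are shown to let the letters behind the motif counts of the next paragraph be read. Each runs from 250 bases before to 50 bases after the gene's start, 5′ to 3′ on the gene's strand, from RefSeq on GRCh38.p14. Capitals mark an E2F-like motif, where there is one, in the first 5, which are the selection genes MCM6 and CDC6 and the higher genes CCNE1, DTL and MCM10. They mark CCAAT in the linker histone gene HIST1H1D, and a CHR-like motif, a late cell cycle element, in PIF1 and TOP2A, which were lower. The promoters were picked after their matches were seen. They lie at chr2:135876394-135876693 (minus strand), chr17:40287629-40287928 (plus), chr19:29811741-29812040 (plus), chr1:212035498-212035797 (plus), chr10:13161308-13161607 (plus), chr6:26234938-26235237 (minus), chr15:64825598-64825897 (minus) and chr17:40417847-40418146 (minus).
MCM6: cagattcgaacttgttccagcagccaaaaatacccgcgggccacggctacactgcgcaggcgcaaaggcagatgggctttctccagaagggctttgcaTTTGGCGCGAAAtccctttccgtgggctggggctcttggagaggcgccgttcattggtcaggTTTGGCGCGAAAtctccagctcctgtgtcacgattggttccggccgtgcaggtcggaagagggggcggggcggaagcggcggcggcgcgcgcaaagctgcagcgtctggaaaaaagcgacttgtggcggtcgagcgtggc
CDC6: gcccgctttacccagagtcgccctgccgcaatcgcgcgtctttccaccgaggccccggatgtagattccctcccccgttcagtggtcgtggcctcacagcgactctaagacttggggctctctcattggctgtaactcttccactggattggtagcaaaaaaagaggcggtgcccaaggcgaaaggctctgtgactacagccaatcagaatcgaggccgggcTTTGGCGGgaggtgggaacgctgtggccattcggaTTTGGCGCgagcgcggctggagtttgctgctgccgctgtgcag
CCNE1: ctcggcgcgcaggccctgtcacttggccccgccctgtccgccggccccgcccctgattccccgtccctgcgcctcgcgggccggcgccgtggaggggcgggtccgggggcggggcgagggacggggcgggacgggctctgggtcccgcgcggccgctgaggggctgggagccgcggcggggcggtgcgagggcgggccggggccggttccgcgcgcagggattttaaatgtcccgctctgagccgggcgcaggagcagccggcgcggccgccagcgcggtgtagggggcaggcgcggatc
DTL: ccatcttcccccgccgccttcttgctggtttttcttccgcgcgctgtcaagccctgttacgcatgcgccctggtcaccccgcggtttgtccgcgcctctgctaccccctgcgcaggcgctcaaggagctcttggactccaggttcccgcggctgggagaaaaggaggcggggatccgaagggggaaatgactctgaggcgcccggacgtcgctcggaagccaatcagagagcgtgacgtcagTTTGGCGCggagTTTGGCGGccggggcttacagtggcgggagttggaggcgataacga
MCM10: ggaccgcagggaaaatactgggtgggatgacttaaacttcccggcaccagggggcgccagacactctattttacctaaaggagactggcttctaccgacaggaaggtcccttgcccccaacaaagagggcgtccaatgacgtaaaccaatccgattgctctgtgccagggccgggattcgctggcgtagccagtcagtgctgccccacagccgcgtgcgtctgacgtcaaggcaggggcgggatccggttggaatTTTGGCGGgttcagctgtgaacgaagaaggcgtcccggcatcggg
HIST1H1D: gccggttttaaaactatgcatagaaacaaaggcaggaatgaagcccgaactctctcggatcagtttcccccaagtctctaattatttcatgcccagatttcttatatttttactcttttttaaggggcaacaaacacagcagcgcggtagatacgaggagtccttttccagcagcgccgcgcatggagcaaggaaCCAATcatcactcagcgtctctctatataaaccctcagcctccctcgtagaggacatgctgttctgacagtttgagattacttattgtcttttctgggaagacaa
PIF1: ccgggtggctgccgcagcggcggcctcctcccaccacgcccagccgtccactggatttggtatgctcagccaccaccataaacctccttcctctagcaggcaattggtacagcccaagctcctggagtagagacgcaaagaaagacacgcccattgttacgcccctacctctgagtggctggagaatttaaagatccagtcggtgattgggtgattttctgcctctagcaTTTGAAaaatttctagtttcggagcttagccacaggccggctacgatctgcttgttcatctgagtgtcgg
TOP2A: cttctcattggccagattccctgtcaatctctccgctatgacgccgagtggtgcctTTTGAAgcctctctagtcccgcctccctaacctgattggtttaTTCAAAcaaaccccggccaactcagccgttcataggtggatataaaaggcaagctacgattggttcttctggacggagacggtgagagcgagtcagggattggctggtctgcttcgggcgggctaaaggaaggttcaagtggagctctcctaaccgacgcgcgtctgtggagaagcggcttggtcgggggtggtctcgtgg
In MCM6 the capitals begin 152 and 90 bases before the start, and each run holds TTTGGCGC and, 4 bases on, its overlapping partner on the other strand. CDC6 has matches that begin 28 bases before and at base 8 after the start, DTL 8 bases before and at base 5 after it, and MCM10 at base 6 after it. CCAAT begins 55 bases before the start of HIST1H1D and the CHR-like motif 20 bases before that of PIF1. The CCNE1 window holds no match.

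An E2F-like motif was TTTGGCGC, TTTCGCGC, TTTCCCGC or TTTGGCGG on either strand, a CHR-like motif was TTTGAA or TTCGAA, and the last was CCAAT. The E2F-like motif was in 5 of the 7 selection genes with a promoter in the table, in 15 of 79 higher genes other than histones (19.0%), in 7 of 109 lower genes (6.42%), in 6.12% of measured genes and in 3.34% of all 27305 promoters of this length. The CHR-like motif was in 42 of the 109 lower genes (38.5%), in 6 of the 79 higher genes (7.59%), in 11.8% of measured genes and in 17.1% of all promoters. CCAAT was in 20 of 21 replication histone promoters (95.2%), in 66 of the lower genes (60.6%), in 27 of the higher genes (34.2%), in 37.6% of measured genes and in 35.4% of all promoters. Among the 7 selection genes, 6 had CCAAT (85.7%) and 2 the CHR-like motif (28.6%). Of the 21 histone promoters, 6 held the E2F-like motif (28.6%) and 7 the CHR-like motif (33.3%). These are counts of letters, with no measure of binding.

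All 25 genes for origin licensing and firing outside the selection were measured. A ratio above 1 was found for 20 of them, and 7 passed 1.5-fold upwards and 0 downwards. Their median log2 ratio was 0.38, against 0.03 over all measured genes. Besides MCM10 and ORC1, the 7 were RECQL4 (1.75-fold), the polymerase anchor WDHD1 (1.60-fold), GINS4 and MCM2 (1.53-fold each) and MCMBP (1.51-fold). The helicase subunits MCM4 and MCM7 had 197 and 230 CPM in early-S cells, against 132 and 174 CPM in the others. CDT1, which loads the helicase, had 64.4 CPM against 44.0 CPM, and its inhibitor geminin (GMNN) 149 CPM against 114 CPM. The subunits did not share 1 level of difference, since ORC4 and ORC5 were at 0.979 and 0.956 times the level of the other cells. DBF4, the activator of the CDC7 kinase, was at 0.699 times, with 106 CPM in early-S cells and 152 CPM in the others.

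The enzymes that copy DNA were higher in small steps, and 0 of them reached 1.5-fold. Among 11 measured polymerase and primase genes all 11 lay above 1, with a median log2 ratio of 0.29, and the primase PRIM1 was highest with 108 CPM in early-S cells and 75.9 CPM in the others (1.42-fold). Among 19 genes for clamp loading and the lagging strand 18 lay above 1, with a median of 0.34, led by the clamp loader subunit RFC4 (1.43-fold) and by DSCC1 (1.40-fold). Among 24 genes of nucleotide synthesis 23 lay above 1, with a median of 0.22. TYMS, which makes thymidylate, had 290 CPM in early-S cells and 238 CPM in the others (1.21-fold). TK1, thymidine kinase, was 1.30-fold and RRM2, a ribonucleotide reductase subunit, 1.18-fold higher.

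Of 25 measured G1/S regulators, 5 passed 1.5-fold upwards and 0 downwards, and the median log2 ratio was 0.19. They were CCNE1, DTL and 3 E2F genes. E2F2, an activator that was measured only through its level in early-S cells, had 50 UMIs and 7.67 CPM there against 3.57 CPM (2.15-fold, 1.55 to 2.91). E2F1, also an activator, had 33.0 CPM against 20.9 CPM (1.58-fold, and 1.43-fold for the top 5% of cells), and the repressor E2F8 was 1.56-fold higher. The D-type cyclin CCND1, an earlier G1 cyclin, had 593 CPM in early-S cells and 606 CPM in the others, and its interval of 0.947 to 1.01 held 1. WEE1, which restrains CDK1, was lowest at 0.691 times. Among 10 measured CDK inhibitors and growth arrest genes, 2 passed 1.5-fold downwards and 0 upwards (median -0.20). The 2 were CDKN2D at 0.632 times (23.5 CPM against 37.1 CPM) and CDKN1B at 0.663 times (15.8 CPM against 23.8 CPM), and CDKN1A, the p21 gene, had 33.1 CPM in early-S cells and 40.8 CPM in the others. Neither CDKN2D (0.867 times) nor CDKN1B (0.823 times) passed 1.5-fold in cells of at least 10000 UMIs, and neither did with the score counted on thinned cells.

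Chromatin assembly and fork repair genes were mostly higher. Of 20 chromatin assembly and maintenance methylation genes, 19 lay above 1, 2 reached 1.5-fold and 0 were lower, with a median log2 ratio of 0.37. SLBP had 226 CPM in early-S cells and 132 CPM in the others, and UHRF1, which guides DNA methylation to new DNA, had 61.5 CPM and 40.0 CPM (1.54-fold). The histone chaperone NASP had 425 CPM against 301 CPM (1.41-fold). Of 34 fork checkpoint and repair genes, 33 lay above 1 and 6 reached 1.5-fold, with a median of 0.34. After MSH6 these were RMI2 (1.70-fold), XRCC2 (1.64-fold), the checkpoint mediator CLSPN (1.56-fold), TIPIN (1.54-fold) and DSN1, a kinetochore gene placed in that list (1.52-fold). The calls of UHRF1 (1.41-fold among cells of 5000 to 10000 UMIs) and RMI2 (1.46-fold at 10000 UMIs or more) ended in these alternatives.

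**Figure D1:**
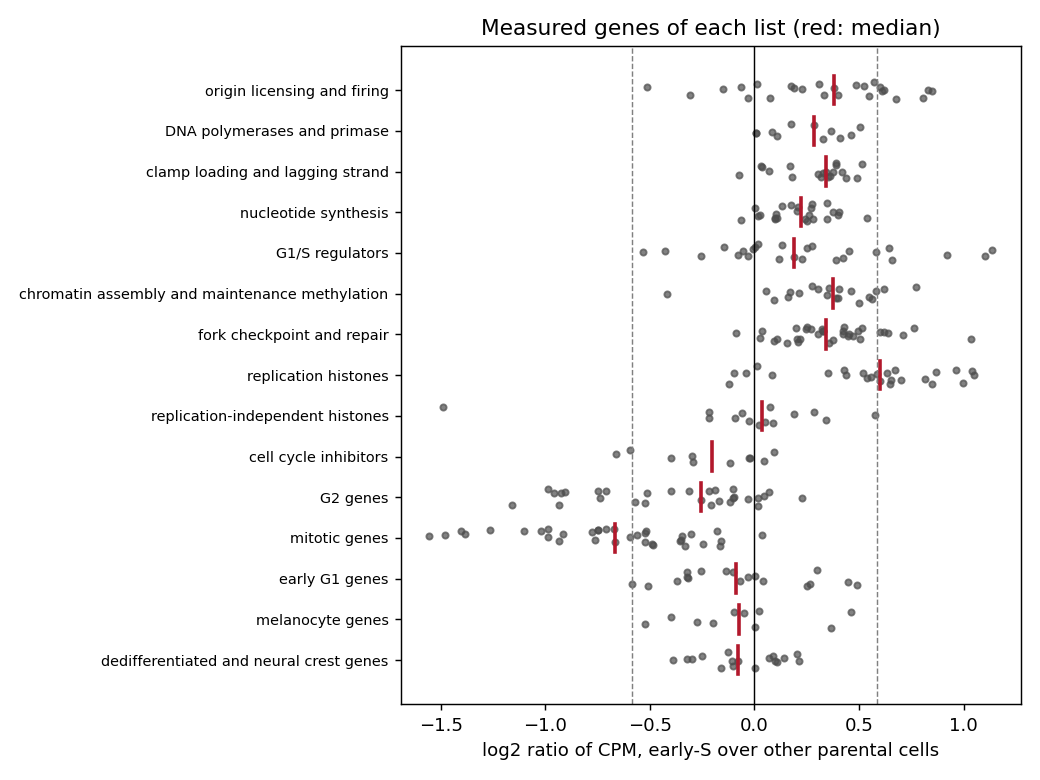
Each point is 1 measured gene of a list, placed by the log2 ratio of its CPM in early-S cells over that in the other parental cells, with a red bar at the median of the list and dashed lines at 1.5-fold either way. Replication histones have the highest median (0.60, or 0.55 without the 5 genes measured only through early-S cells) and mitotic genes the lowest (-0.67).

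Genes of later phases were lower in early-S cells taken as a whole, though not in each part of the group, as given below. Of 35 mitotic genes, 34 lay below 1, 19 passed 1.5-fold downwards and 0 upwards. Their median log2 ratio was -0.67, and the list summed to 3430 CPM in early-S cells and 5273 CPM in the others. Of 29 G2 genes, 9 passed 1.5-fold downwards and 0 upwards (median -0.26). CCNA2, CENPF and CENPE are in more than 1 list. The lowest gene at 20 CPM or more was PIF1 (ENSG00000140451), a helicase expressed late in the cycle, with 82 UMIs and 12.6 CPM in early-S cells against 58.9 CPM, or 0.214 times (0.170 to 0.266). The spindle gene FAM83D was at 0.320 times, the centromeric histone CENPA at 0.356, cyclin F (CCNF) at 0.358, the mitotic kinase AURKA at 0.378 and the ubiquitin enzyme UBE2C at 0.384 times. UBE2C had 229 CPM in early-S cells and 596 CPM in the others. GAS2L3, CDCA8, HYLS1, GTSE1, KIF18A and ARL6IP1 completed the 12 lowest, at 0.391 to 0.466 times. TOP2A, which untangles chromosomes, had 290 CPM in early-S cells and 563 CPM in the others, and the proliferation marker MKI67 215 CPM and 320 CPM. Ratios within the mitotic list were unequal. Cyclin B1 (CCNB1) was at 0.843 times (0.803 to 0.884) and the mitotic activator CDC20 at 0.894 times (0.839 to 0.951), with 166 CPM in early-S cells and 186 CPM in the others, and PTTG1 at 1.02-fold was the gene above 1. In cells of at least 10000 UMIs, ranked anew, the lowest genes differed less, with PIF1 at 0.472 times, FAM83D at 0.590, CCNF at 0.564 and UBE2C at 0.588 times, and HYLS1 at 0.739 times was no longer past 1.5-fold. With the score counted on thinned cells PIF1 was at 0.327 times.

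Lists of other programmes stayed close to the median of all genes. Early G1 genes (18 measured, median log2 ratio -0.09), melanocyte genes (10 measured, -0.08), dedifferentiated and neural crest genes (17 measured, -0.08), the integrated stress response (16 measured, 0.01), cholesterol synthesis (17 measured, 0.03) and glycolysis (15 measured, 0.05) had 0 members past 1.5-fold in either direction. Among 12 measured interferon response genes, only the transcription factor IRF1 passed, with 24.5 CPM in early-S cells and 15.9 CPM in the others (1.54-fold, and 1.17-fold in cells of at least 10000 UMIs). Among 15 heat-shock genes, the near-identical pair HSPA1A and HSPA1B were lower, at 0.643 and 0.644 times (0.782 and 0.764 times in cells of at least 10000 UMIs), and reads of such a pair can be split between them. The heat-shock list as a whole was not lower, and 8 of the 15 lay above 1. It summed to 11720 CPM in early-S cells and 10630 CPM in the others (1.10-fold, 1.09 to 1.11). The 6 fibroblast markers together had 4.45 CPM in early-S cells and 3.90 CPM in the others, and the 15 control genes a median of 0.11 (log2 ratio). The 4 keratinocyte markers were not near background, with 528 CPM in early-S cells and 567 CPM in the others. Most of that was KRT10, with 487 and 527 CPM.

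Replication-dependent histone genes were higher in early-S cells as a sum. Of 63 listed, 25 were measured, 30 had UMIs below 5 CPM and 8 had none. Among the 25, 14 passed 1.5-fold upwards and 0 downwards, around a median log2 ratio of 0.60. Of the 25, 5 were measured only through their level in early-S cells, and all 5 are among the 14. Among the other 20, 9 passed 1.5-fold upwards, with a median of 0.55. In at least 1 alternative 10 of the 14 fell short of 1.5-fold. Their intervals lay above 1 for 20 genes and below 1 for none of the 25. The list summed to 36721 UMIs and 5632 CPM in early-S cells, against 4379 CPM in the others, a 1.29-fold difference (1.27 to 1.30). That difference was 1.17-fold among cells of 5000 to 10000 UMIs and 1.54-fold among cells of at least 10000 UMIs ranked anew. Measured members lie in the clusters at chr6:26017085-27893149 (22 genes, 12 of them higher) and chr1:149782689-149887916 (3 genes, 2 higher). Counts of single histone genes are uncertain where near-identical copies share reads.

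The histone types did not differ alike. The linker H1 genes summed to 2315 CPM in early-S cells and 1408 CPM in the others, 1.64-fold higher (1.62 to 1.67). H2A genes were 1.57-fold, H3 genes 1.24-fold and H2B genes 1.20-fold higher, and H4 genes 1.06-fold. The gene HIST1H4C held 17765 of the 17973 H4 UMIs in early-S cells, so the H4 value is close to that of 1 gene. HIST1H1D (ENSG00000124575), a linker histone, had 1163 CPM in early-S cells and 645 CPM in the others, 1.80-fold higher (1.76 to 1.85). The further H1 genes HIST1H1A, HIST1H1C, HIST1H1B and HIST1H1E were 1.60-fold, 1.55-fold, 1.52-fold and 1.47-fold higher. HIST1H4C, the most abundant of the histone genes here, made up 48.4% of the histone sum in early-S cells and 58.6% in the others, and differed little, with 2725 CPM against 2568 CPM (1.06-fold, 1.04 to 1.08). Without it the sum was 1.61-fold higher in early-S cells. The highest ratios belonged to genes with few UMIs: HIST1H3C (49 UMIs in early-S cells) was 2.07-fold, HIST1H4I (58 UMIs) 2.06-fold, HIST1H2AK 1.99-fold and HIST1H2AL 1.95-fold higher. At the other end, HIST1H3G (1.01-fold), HIST1H2BN (0.971 times), HIST1H2BG (0.935 times) and HIST1H4H (0.918 times) did not differ beyond counting error. The list of replication-independent histone genes had a median log2 ratio of 0.04 (14 measured, 0 higher and 1, CENPA, lower), with H2AFZ at 1.06-fold. Not all of that list need be replication-independent or level through the cycle. HIST1H2BC was placed in it, though it lies inside the histone cluster on chromosome 6 (chr6:26114873-26123926). It had 22.4 CPM in early-S cells and 15.0 CPM in the others (1.49-fold). CENPA is a centromeric histone of late phases.

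Across deciles of the parental cells ranked by the selection score, the histone sum was level between the top 2 deciles. It was 2691 CPM in decile 1, 5225 CPM in decile 8, 5721 CPM in decile 9 (5665 to 5776) and 5632 CPM in decile 10, which is the early-S group (5574 to 5690). HIST1H4C had 2941 CPM in decile 9 and 2725 CPM in decile 10, with intervals that did not meet. Without HIST1H4C the histone sum was 2779 CPM in decile 9 (2741 to 2818) and 2907 CPM in decile 10 (2866 to 2949), so the other histones together were highest in decile 10. HIST1H1D had 1040 and 1163 CPM in these deciles and licensing genes 1393 and 1497 CPM. CCNE1 increased with the score, with 4.87 CPM in decile 1, 16.6 CPM in decile 9 and 21.3 CPM in decile 10. Mitotic genes had 5249 CPM in decile 1, 3829 CPM in decile 9 and 3430 CPM in decile 10.

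**Figure D2:**
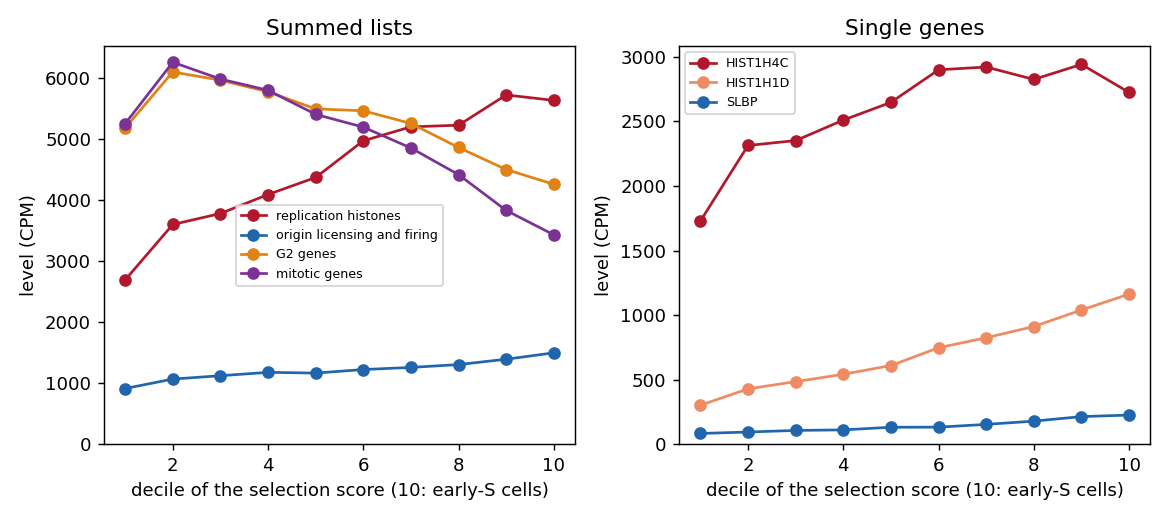
Levels in CPM (points) by decile of the parental cells ranked by the selection score, for summed lists on the left and single genes on the right, with decile 10 being the early-S cells. The histone sum is 5721 CPM in decile 9 and 5632 CPM in decile 10, and HIST1H1D is highest in decile 10 at 1163 CPM.

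To ask where in the cycle histones peak, each thinned cell was placed in a plane with the selection genes on one axis and the summed G2 and mitotic genes on the other. The angle around the centre was counted from cells low in both, past cells high in the selection genes alone (90 degrees), high in both (180 degrees) and high in G2 and mitotic genes alone (270 degrees). The angle is a position, and the data do not show in which direction a cell moves. Early-S cells lie on the side high in the selection genes by construction, since these genes are 1 of the axes. Their place along that side depends on their G2 and mitotic genes, which the selection did not use. Of early-S cells, 67 (7.37%) lay between 60 and 90 degrees and 455 (50.1%) between 90 and 120 degrees. A further 292 (32.1%) lay between 120 and 150 degrees and 75 (8.25%) between 150 and 180 degrees.

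The histone sum, which placed no cell, was highest at 90 to 120 degrees with 6546 CPM (6496 to 6596). It was 6308 CPM at 60 to 90 degrees, 5531 CPM at 120 to 150 degrees and 3829 CPM at 150 to 180 degrees, with a minimum of 2373 CPM at 210 to 240 degrees, where mitotic genes were highest with 8366 CPM. Of the 25 measured histone genes, 18 were highest at 90 to 120 degrees, HIST1H1D with 1227 CPM and HIST1H4C with 3391 CPM. Among the 18, HIST1H4I, HIST1H2AL and HIST1H2BF were measured only through early-S cells, 50.1% of which lie in this arc. How many of all measured genes were highest in this arc was not counted. CCNE1, E2F1, SLBP, CDT1 and MCM10 were also highest there, while licensing genes as a list were level between 90 to 120 degrees (1370 CPM) and 120 to 150 degrees (1374 CPM). At 330 to 360 degrees, where cells are low in the selection genes by construction, the histone sum was 5397 CPM. CDKN1A was highest at 0 to 30 degrees, with 75.6 CPM, and had 47.5 CPM at 90 to 120 degrees and 22.8 CPM at 210 to 240 degrees. Median depth per arc ranged between 7298 and 9575 UMIs and was lowest at 120 to 150 degrees, and its part in these levels was not tested.

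**Figure D3:**
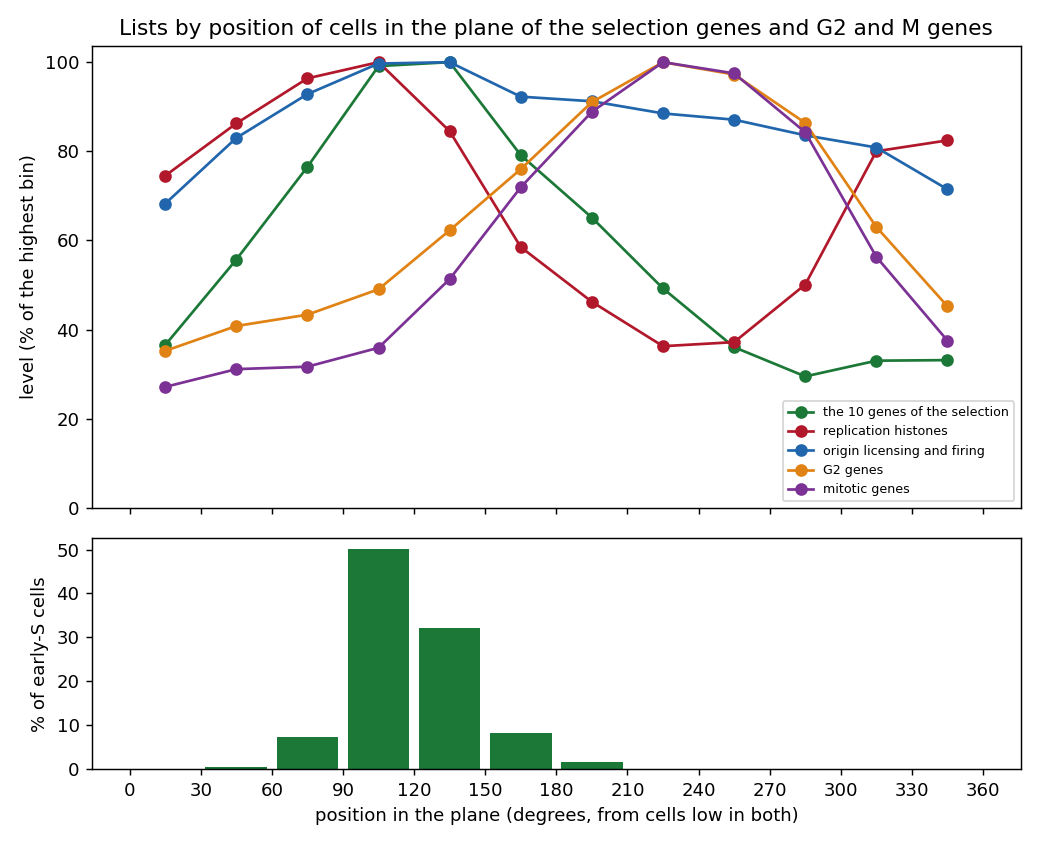
The upper panel gives each summed list, as a percentage of its highest arc, by position of parental cells in the plane of the selection genes and the G2 and mitotic genes, in arcs of 30 degrees, and the lower panel gives the share of early-S cells in each arc. The histone sum is highest at 60 to 120 degrees (6308 and 6546 CPM) and lowest at 210 to 240 degrees (2373 CPM), and the selection, G2 and mitotic genes follow the axes they set.

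Early-S cells were not alike in their histone mRNA. In cells thinned to 5000 UMIs, the histone genes had a median of 27 UMIs in early-S cells, with a range of 0 to 75 and quartiles of 9 and 41. In the other parental cells the median was 18 UMIs, with a range of 0 to 140 and quartiles of 5 and 36. The distribution had a low and a high mode in both groups: 99 early-S cells (10.9%) and 20.2% of the others had 0 to 4 histone UMIs, 135 (14.9%) and 18.1% had 5 to 9, only 52 (5.72%) and 7.29% had 10 to 14, and a second maximum of 83 early-S cells (9.13%) had 35 to 39. The group was therefore a mixture of cells with few and with many histone mRNAs, in proportions that leaned to the high side.

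**Figure D4:**
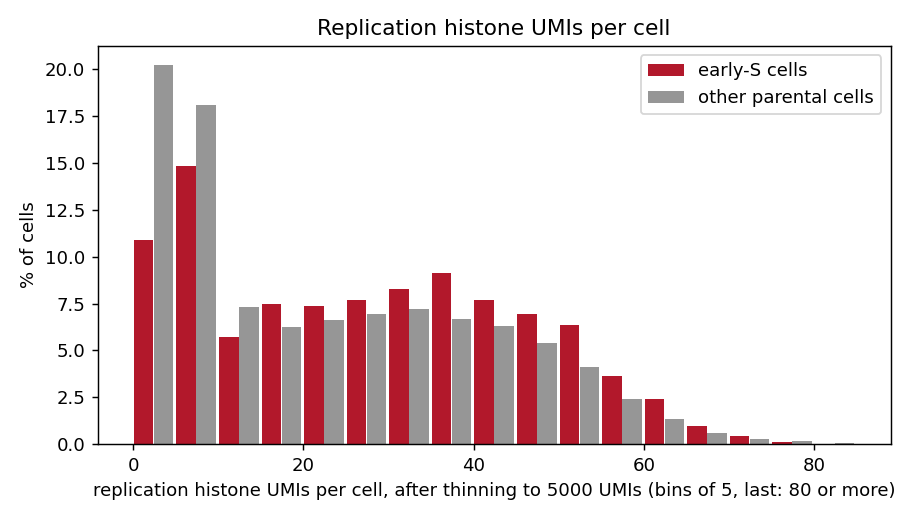
Share of cells, in percent, by number of replication histone UMIs after thinning to 5000 UMIs, in bins of 5, for early-S cells (red, left bars) and the other parental cells (grey, right bars). Both have a low mode under 10 UMIs and a broad high mode, and 10.9% of early-S cells against 20.2% of the others have 0 to 4.

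The early-S cells were divided by histone UMIs into 4 groups of 227 or 228 cells, with median selection scores of 13.7, 14.4, 14.1 and 14.0, all above the limit that chose the cells. The groups run here from low to high, and histone medians were 5, 19, 35 and 50 UMIs, and medians of G2 and mitotic UMIs were 46, 33, 30 and 31. The histone-high group also had the highest median depth, 7352 UMIs, against 6396 UMIs in the histone-low group, and the part of depth in these values was not tested. Among 5665 genes with at least 20 CPM in the group highest or the group lowest in histones, 200 (3.53%) were at least 1.5-fold higher and 263 (4.64%) lower in the histone-high than in the histone-low group. As these groups were cut on histones, the 10222 CPM of histones in the highest and 1028 CPM in the lowest are the cut itself.

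The histone-low group of the early-S cells had more of some mitotic mRNAs. Mitotic genes summed to 2718 CPM in the histone-high group and 5033 CPM in the histone-low group, 0.540 times (0.520 to 0.560). The mitotic motor CENPE had 12.4 CPM against 69.8 CPM (0.177 times), the spindle gene HMMR 48.4 CPM against 162 CPM (0.298 times) and CCNB1 164 CPM against 508 CPM (0.322 times). The mitotic kinases AURKA (0.323 times) and PLK1 (0.338 times) and the activator CDC20 (0.456 times) were low with them. The other genes among the 12 lowest were NEK2, a mitotic kinase, and ANKRD13C, CAMK2D, IFT81, IL1RL1, SPANXB1 and ZNF43, at 0.326 to 0.392 times. Of these 12, 7 had 20 CPM or more only in the histone-low group, and some rest on few UMIs (ANKRD13C 12 against 33). UBE2C, which was also among the lowest genes of early-S cells as a whole, had an interval between these groups that held 1 (0.987 times, 0.854 to 1.14), and the interval of PIF1 held 1 (1.17-fold, 0.584 to 2.41). Some late genes went the other way. Cyclin F (CCNF) was 2.06-fold (1.19 to 3.67) and FAM83D 1.84-fold (1.01 to 3.51) higher in the histone-high group. The other parental cells had a mitotic sum of 5273 CPM and a median of 45 G2 and mitotic UMIs, against 5033 CPM and 46 UMIs in the histone-low group. CCNB1 (508 against 330 CPM) and CDC20 (234 against 186 CPM) were higher in the histone-low group than in the other parental cells. TOP2A (344 against 563 CPM) and UBE2C (238 against 596 CPM) were lower. The name early-S may therefore not hold for each of these cells.

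Genes of replication itself were close between the groups. Licensing genes summed to 1541 CPM in the histone-high and 1452 CPM in the histone-low group (1.06-fold), nucleotide synthesis genes were 1.09-fold and fork repair genes 1.11-fold higher. Single genes went both ways, and the primase PRIM1 was 1.44-fold higher in the histone-high group. Outside the replication histone list that cut the groups, the 12 genes with the highest ratio at 20 CPM or more were HIST1H2BC (10.2-fold, on 57 UMIs against 5), SHROOM2 (3.83-fold), HIST3H2A (3.80-fold), the linker histone H1F0 (3.20-fold), FAM111A, a relative of FAM111B (3.03-fold, 83.7 CPM against 27.7 CPM), the glycosylase NEIL3 (2.73-fold), CCDC144NL-AS1, SAMD9, HDAC5, TIAM1, CDK1 (2.41-fold) and RAD54B (2.41-fold). HIST1H2BC and HIST3H2A are themselves histone genes, so their ratios cannot be read apart from the cut on histones. Of these 12, 9 had 20 CPM or more only in the histone-high group. Among the selection genes, FAM111B was 1.48-fold higher and CDCA7 was at 0.462 times. SLBP (0.698 times), DTL (0.642 times), USP37 (0.436 times) and CCND1 (0.792 times) were higher in the histone-low group, while CCNE1 (1.17-fold, 0.682 to 2.03) and E2F1 (1.14-fold, 0.767 to 1.71) had intervals that held 1.

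A group chosen by histones instead would hold mostly other cells. Early-S cells are 10% of all eligible parental cells, and that is the share to set beside those below. The top 10% of parental cells by their share of histone UMIs shared 142 cells with the early-S group, which is 15.6% of each, and summed to 805 CPM of selection genes and 11177 CPM of histones, against 1469 CPM and 5632 CPM in early-S cells. The top 10% by G2 and mitotic genes shared 7 cells, 0.770% of each, and had 18210 CPM of G2 and mitotic genes against 7285 CPM in early-S cells. In turn, early-S cells made up 139 (6.11%), 212 (9.33%), 261 (11.5%) and 297 (13.1%) of 4 equal groups of all eligible parental cells by histone UMIs, from low to high.

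Few persister cells reached the same score. Of 5847 eligible persister cells, after 95 barcodes with at least 2 T cell markers were left out, 52 (0.889%, 0.665 to 1.16%) were at or above the limit that held 10% of the parental cells. With every cell thinned to 5000 UMIs, 1536 parental cells (16.9%) and 123 persister cells (2.10%) had at least 6 UMIs of the selection genes. Depth is not equal, since the other parental cells had a median of 8414 UMIs and the persister cells outside their own top 10% had 11775.

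The same ranking within the persister library gave a top 10% of 584 cells, and more genes differed from the rest there. The median score was 14.1 in parental early-S cells and 7.41 in the persister top 10%. Among 9613 measured genes, 870 (9.05%) passed 1.5-fold upwards and 205 (2.13%) downwards, around a median log2 ratio of 0.11. Higher in both libraries were 56 genes, 49.6% of the parental and 6.44% of the persister list, and lower in both were 18 genes, 13.6% and 8.78%. Of the 12 highest parental genes named above, 11 were also at least 1.5-fold higher in the persister top 10%, and the twelfth, HIST1H1D, was 1.47-fold higher. The lowest genes held less: 7 of the 12 were at least 1.5-fold lower in the persister top 10%, and KIF18A was 1.19-fold higher.

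Ratios of replication genes were larger in the persister library. E2F1 had 33.0 CPM in parental early-S cells against 20.9 CPM in the other parental cells, and 28.5 CPM in the persister top 10% against 6.18 CPM in the other persister cells (4.61-fold). MCM10 had 128 CPM against 70.9 CPM in parental cells, and 71.9 CPM against 16.7 CPM (4.31-fold) in persister cells. DTL had 112 CPM against 59.1 CPM in parental cells, and 164 CPM against 43.0 CPM (3.80-fold) in persister cells. SLBP had 226 CPM against 132 CPM in parental cells, and 132 CPM against 54.1 CPM (2.43-fold) in persister cells. In the persister library 21 of 25 licensing genes and 32 of 34 fork repair genes passed 1.5-fold upwards. E2F1, MCM10 and SLBP had a higher level in parental early-S cells than in the persister top 10%, and DTL a lower one, while each of the 4 was higher in the other parental cells than in the other persister cells.

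Histones in the persister library summed to 3340 CPM in the top 10% and 2208 CPM in the rest, 1.51-fold (1.49 to 1.53), where 12 of the 22 measured histone genes passed 1.5-fold upwards and 0 downwards. HIST1H4C was 1.06-fold higher in parental early-S cells and 1.49-fold higher in the persister top 10%, with 1811 CPM against 1218 CPM there. HIST1H1D was 1.80-fold higher in parental early-S cells and 1.47-fold higher in the persister top 10%, with 476 CPM against 325 CPM. Of 35 mitotic genes, 16 passed 1.5-fold downwards and 0 upwards. The difference between the libraries was not tested, since each is 1 library.

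**Figure D5:**
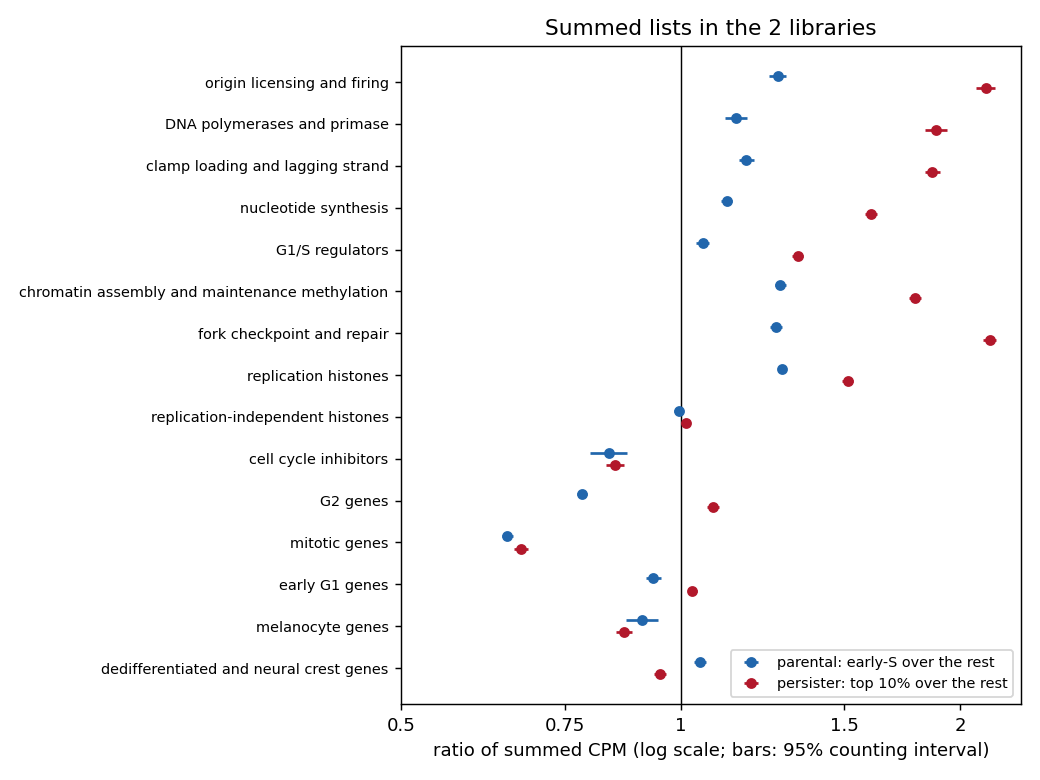
Ratio of the summed CPM of each list, on a log scale with 95% counting intervals, for parental early-S cells over the other parental cells (blue, upper point) and for the persister top 10% over the other persister cells (red, lower point). Licensing genes are at 1.27 and 2.13, histones at 1.29 and 1.51, and G2 genes at 0.783 and 1.08.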

How the data were processed

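Libraries were 10x Chromium 3' (v3), per the labels' protocols, and were processed with Cell Ranger 3.1.0 on GRCh38, per the submitters' processing notes. The authors deposited raw UMI counts for 33538 genes in each barcode, with no normalization. Doublets were not called. Members, gene lists and comparisons were chosen with earlier results of these data known. UMIs were summed per group and divided by the group's total to give CPM, and folds are ratios of CPM, with no pseudocount. Intervals are 95% exact Poisson, conditional binomial or Clopper-Pearson intervals, and a count of 0 is read as up to 3 UMIs. Thinning used seed 7. Named genes were the 12 highest and 12 lowest at 20 CPM or more (mitochondrial, ribosomal and clone-named genes left out), up to 2 of each list, each measured replication histone and 18 set genes; others were named after their values were seen. Gene positions are from GENCODE 29 (33456 of 33538 IDs matched). Ratios of simulated Poisson counts with set folds were compared with the 1.5-fold limit, and thinning was checked to leave the set number of UMIs. Python 3.11.15, numpy 2.4.6, scipy 1.17.1 and pandas 2.3.3 were used. The alternatives tried changed the score, the share of cells, depth and mitochondrial limits, the CPM minimum and the fold.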

Additional observations from a re-analysis of the deposited data

Results flagged for a closer look

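Among the lists and named genes, 3 lists and 5 genes lay on opposite sides of 1 in the parental and the persister library, with counting intervals of both clear of 1. G2 genes were at 0.783 times in early-S cells (4258 CPM against 5436 CPM in the other parental cells) and at 1.08 times in the persister top 10% (2954 CPM against 2727 CPM). MKI67 was at 0.673 times (215 CPM against 320 CPM) and at 1.17 times (159 CPM against 136 CPM). Early G1 genes were at 0.934 times (1892 CPM against 2025 CPM) and at 1.03 times (4712 CPM against 4580 CPM). Dedifferentiated and neural crest genes were at 1.05 times (2942 CPM against 2805 CPM) and at 0.949 times (2620 CPM against 2760 CPM). KIF18A was at 0.452 times (14.7 CPM against 32.6 CPM) and at 1.19 times (32.1 CPM against 26.9 CPM), CTGF at 0.702 times (9.82 CPM against 14.0 CPM) and at 1.80 times (28.2 CPM against 15.7 CPM), and TWIST1 at 0.800 times (22.7 CPM against 28.4 CPM) and at 1.23 times (17.6 CPM against 14.2 CPM). IRF1 was at 1.54 times (24.5 CPM against 15.9 CPM) and at 0.899 times (859 CPM against 955 CPM). A further 7 genes, all under 12 CPM in each group, passed 1.5-fold in opposite directions: AC009005.1, AC090409.1, C2orf69, GATD3A, IQCJ-SCHIP1, TMPO-AS1 and TRAK1. With 1 library each, the difference between libraries was not tested. Beside these values, the other parental cells had a median of 45 G2 and mitotic UMIs per 5000 and the other persister cells 10, and the part of that difference was not tested.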

How the results depend on the processing

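No paired analysis was possible because each group has 1 library. Against 113 genes higher and 132 lower in early-S cells, the thinned score gave 84 and 82, the top 5% of cells 292 and 266, the top 20% 71 and 73, and cells of at least 10000 UMIs 205 and 170. A minimum of 1 CPM gave 510 and 552, of 20 CPM 33 and 53, and no filter 2291 and 1187. A lower fold limit gave 728 and 536, and the 2-fold limit 12 and 26. The histone ratio of 1.29 became 1.27 with the thinned score, 1.34 for the top 20%, 1.54 at 10000 and 1.26 at 1000 UMIs or more, 1.23 without PCNA, 1.26 without the MCM genes, 1.33 without CCNE2, 1.24 as a mean over cells, 1.26 relative to the median gene, 1.17 for cells of 5000 to 10000 UMIs and 1.61 without HIST1H4C. In persister cells at or above the parental limit it was 1.41, against 1.51. The histone peak stayed centred at 105 degrees in 4 of 5 alternatives, and at 112.5 degrees with arcs of 45 degrees. Of 48 named genes past 1.5-fold, 21 fell short of it in at least 1 alternative and 9 moved by over 1.5 times. At 10000 UMIs or more, HIST1H2AK (0.937 times) and HIST2H2AB (0.761 times) turned to lower, on few UMIs. Leaving out the shared barcodes, a choice made after seeing the data, gave 116 and 128 genes and 1.29. The cause of these shifts was not tested. Early-S cells hold 6520358 UMIs and the others 75876775, so single genes under 10 CPM are imprecise in early-S cells.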
